A study of Mus musculus with 22 samples.

Results

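Stab1 and Stab2 encode the stabilins, a pair of large scavenger receptors, and were followed along all of their probesets in whole mouse brain. All rows of the expression table whose platform gene symbol was Stab1 or Stab2 alone were taken, which gave 157 of 1201338 rows, 84 for Stab1 and 73 for Stab2. One Stab2 row (5598534) was empty on all 22 arrays, so 72 Stab2 probesets carried values. The genes were chosen by their measured D2 against B6 differences, since an earlier look at these data had found Stab2 far apart between the strains. Those differences are therefore given as a description, without a test.

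The study compared total RNA of whole brains from naive adult males of 2 inbred mouse strains, C57BL/6J (B6, 10 mice) and DBA/2J (D2, 12 mice), on Affymetrix Mouse Exon 1.0 ST arrays with 1 mouse per array. No mouse was treated and none carried a transgene per the labels, and the age is given as adult only. These arrays carry several probesets along a gene, each reporting a log2 value for a short stretch of transcript. The study's title gives alternative splicing as its subject. The sources used here do not place the probesets along each gene, so they are named by their identifiers. A low-signal filter was set at 1.44, the median of all probeset means, and a gene value is the median on an array of the gene's probesets whose mean over all mice reached that level.

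Stabilins are type I membrane proteins built from repeated EGF-like and fasciclin domains, with a link domain of the kind that binds hyaluronan. Stabilin-2 takes up hyaluronan, heparin and other circulating polymers on the sinusoidal endothelium of liver, spleen and lymph node. Stabilin-1 is found on sinusoidal endothelium and on subsets of tissue macrophages, where it shuttles between endosomes and the secretory route and takes up modified proteins such as acetylated LDL and the matrix protein SPARC. Both can recognise phosphatidylserine on dying cells. The endothelium of the brain is continuous, not sinusoidal.

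Stab2 signal was near the filter level in every B6 mouse and well above it in every D2 mouse. In B6 the gene value ran from 1.39 (replicate 5) through a median of 1.57 to 1.68 (replicate 3). In D2 it ran from 5.75 (replicate 24) through a median of 5.97 to 6.56 (replicate 21). The groups did not overlap, and the gap from the highest B6 to the lowest D2 mouse was wider than the spread among the mice of either strain. The means were 1.55 ± 0.11 (SD, n = 10) and 6.06 ± 0.29 (SD, n = 12), a difference of 4.50 on the log2 scale. The B6 values lie at about the filter level, so no fold change of the transcript was drawn from this difference. Over all 16016 genes, 0.306% had strain values that did not overlap with D2 the higher, and Stab2 counts among them by its choice. Fewer expressing cells and less RNA per cell cannot be told apart in whole tissue.

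Stab1 was the other way round and much closer. Its gene value ran from 3.77 (replicate 6) through a median of 4.02 to 4.14 (replicate 2) in B6. In D2 it ran from 3.23 (replicate 13) through a median of 3.58 to 3.83 (replicate 21). The ranges overlapped, since the lowest B6 mouse lay below the highest D2 mouse. The means were 4.00 ± 0.12 (SD, n = 10) and 3.57 ± 0.17 (SD, n = 12), a difference of -0.42. Over all genes the median difference was -0.053, and 0.874% had non-overlapping values with D2 the lower, a group that does not hold Stab1.

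**Figure D1:**
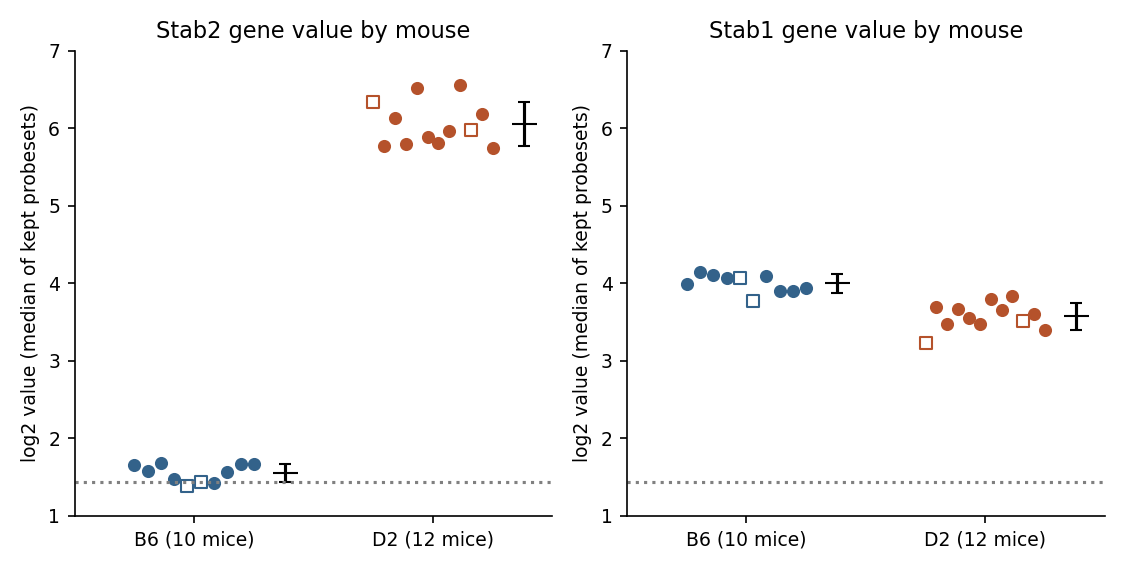
Gene values of Stab2 (left) and Stab1 (right) in each mouse, as log2 values; filled circles are arrays with file letter A and open squares arrays with file letter B, black marks give the mean and SD, and the dotted line is the filter level of 1.44. Every D2 mouse lies between 5.75 and 6.56 for Stab2 against 1.39 to 1.68 in B6, while the Stab1 ranges overlap.

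The file names of the arrays carry a letter that the labels do not explain, and 4 arrays (2 of each strain) have the letter B. Stab2 was 1.39 and 1.44 in the letter B mice of B6 and 5.97 and 6.34 in those of D2, a difference of 4.74. Among the letter A arrays the difference was 4.45. For Stab1 the differences were -0.55 and -0.40. Both genes kept their direction within each letter.

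Along Stab2 the difference held over the whole set of probesets. All 72 with values had the higher mean in D2, by 0.99 to 7.05 with a median of 4.32, and 71 of them by at least 1. The B6 and D2 mice did not overlap in 66 of the 72, against 0.297% of the 595203 kept probesets of the table with D2 the higher. Of the 72, 69 passed the low-signal filter. As many as 36 had a B6 mean below the filter level, and these passed it, where they did, through their D2 values, so the share that differed among them says nothing of its own. In single D2 mice 69 to 72 of the 72 probesets were at or above the filter level, against 32 to 42 in single B6 mice. The medians of all probesets on single arrays, 1.41 to 1.51, lay close to that level. The B6 counts are thus near the share of probesets at large and are no measure of Stab2 detection.

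The widest differences were in probesets whose B6 mean lay below the filter level, or just above it for 5347000 (1.52). Probeset 5347000 ran from 0.55 through a median of 1.60 to 2.98 in B6 and from 7.92 through 8.50 to 9.49 in D2, a difference of 7.05. Probeset 5317539 had the tightest B6 values of those named here, from -0.10 through 0.12 to 0.28, and ran from 6.30 through 6.93 to 7.62 in D2 (difference 6.90). The next were 4586709 (0.21 ± 0.35 in B6 and 6.92 ± 0.37 in D2), 4966864 (1.13 ± 0.41 and 7.60 ± 0.27), 4537640 (0.89 ± 0.70 and 6.88 ± 0.28) and 4315756 (0.24 ± 0.50 and 6.08 ± 0.32; SD, n = 10 and 12). In each of these 6 the lowest D2 mouse exceeded the highest B6 mouse by at least 3.88.

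Not all of Stab2 was dark in B6. The brightest B6 probeset, 4393472, ran from 5.74 through 6.12 to 6.54 in B6 and from 7.11 through 7.36 to 7.67 in D2, a difference of 1.26 without overlap. In all, 36 probesets had a B6 mean at or above the filter level and 9 of them at or above 3. That level is the median over all probesets and kept 595203 of 1190406, and their 75th percentile was 3.46. These 2 counts therefore do not set Stab2 in B6 above probesets at large. The median difference was 4.74 in the 36 probesets under the filter level in B6, 4.09 in the 27 between it and 3, and 2.64 (range 1.26 to 4.35) in the 9 brightest. The B6 level enters both quantities, so this order is a description. Whether B6 signal in these probesets comes from Stab2 transcripts or from other RNA was not tested.

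The probesets with the narrowest differences were mostly dim in both strains. Probeset 5480847 had the smallest, 0.99 (1.13 ± 0.65 in B6 and 2.12 ± 0.73 in D2), followed after 4393472 by 4482575 (1.46) and 5492450 (1.55), with D2 means of 1.63 and 1.85. The strains overlapped in 6 probesets, namely 5480847, 4482575, 5492450, 4658843, 4933830 and 4588660, and their D2 means did not exceed 3.28. The last 3 are named because they overlapped, after their values were seen.

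**Figure D2:**
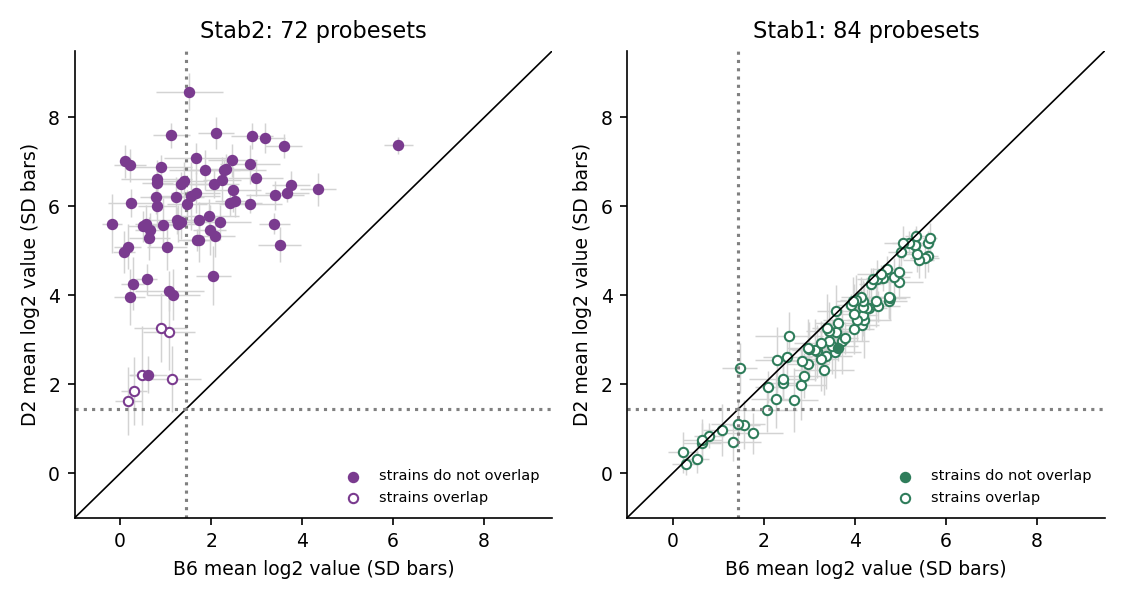
Mean log2 value in B6 (horizontal axis) against D2 (vertical axis) for each probeset of Stab2 (left, 72) and Stab1 (right, 84), with SD bars; filled points mark probesets in which the strains do not overlap, the diagonal marks equal values and the dotted lines the filter level of 1.44. All Stab2 points lie above the diagonal, by 0.99 to 7.05, and 74 of the 84 Stab1 points lie below it.

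Along Stab1 the shift was small and wide in spread. Of 84 probesets, 74 had the lower mean in D2 and 10 the higher, with a median difference of -0.40 and a range from -1.01 to 0.88. The D2 mean was lower by at least 0.5 in 32 and higher by at least 0.5 in 2. The filter kept 73 of the 84, of which 67 were lower and 6 higher in D2. Only 1 probeset, 4914270, had strains that did not overlap (lower in D2), against 0.473% of all kept probesets. It ran from 3.34 through 3.60 to 3.86 in B6 and from 2.43 through 2.79 to 3.30 in D2, and is named for that after its values were seen.

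The lowest Stab1 differences were those of 4755707 (2.66 ± 0.54 in B6, 1.65 ± 0.72 in D2), 5379679 (3.33 ± 0.67 and 2.33 ± 0.56), 4356693 (4.76 ± 0.39 and 3.88 ± 0.40) and 5502413 (1.76 ± 0.67 and 0.90 ± 0.47; SD, n = 10 and 12). At the other end, 4306114 was higher in D2 by 0.88, from 0.76 through 1.53 to 2.06 in B6 and from 1.49 through 2.27 to 3.43 in D2. Probeset 5135515 was higher by 0.54, 5611223 by 0.25, 5428008 by 0.23, 4434194 by 0.12 and 5108697 by 0.11. The strains overlapped in each of these 10 probesets. Relative to the gene value on the same array, 4306114 was 1.31 higher and 4755707 was 0.59 lower in D2.

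Brightness did not order the Stab1 shift simply. Sorted by their mean over all 22 arrays, the 11 probesets below the filter level had a median difference of -0.12 (7 of 11 lower in D2). The 21 between it and 3 had -0.39 (17 lower), the 34 between 3 and 4.5 had -0.51 (33 lower), and the 18 above 4.5 had -0.30 (17 lower). The array was designed on reference sequence, which in the mouse is that of B6, and whether D2 variants lie under any of these probes was not tested.

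The mice of 1 inbred strain also differed among themselves, which the choice of the genes did not use. Stab2 in D2 had an SD of 0.29 between mice, above that of 64.0% of the genes. Without replicates 17 and 21, the 2 highest for Stab2 and left out after their values were seen, its SD was 0.20, above that of 25.6%. The same 2 mice were left out for every gene, and not each gene's own highest, so a lower rank follows from the choice and is a description. Stab1 in D2 had an SD of 0.17, above that of 16.4%. In B6 both lay in the quiet end of the genes, with SDs of 0.11 (Stab2) and 0.12 (Stab1) that exceeded those of 3.96% and 4.52%. The ranks in either strain were not matched for the number of probesets per gene. The Stab1 and Stab2 values are medians over 73 and 69 kept probesets, and a median over many probesets tends to vary less. Stab2 values in B6 also lie near the filter level. Whether the mice differ less in the stabilins than in comparable genes was not tested. The median SD of all genes was 0.24 in B6 and 0.25 in D2.

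D2 replicates 17 and 21 stood above the other D2 mice in Stab2 over nearly the whole gene. Replicate 21 exceeded the D2 median in all 72 probesets and replicate 17 in 70, and their probesets lay 0.58 and 0.51 above the D2 mean in the median. Replicate 13 followed with 56 and replicate 23 with 52 of 72. Replicate 16 was above the median in 10, replicate 24 in 15 and replicate 19 in 18. Over the 12 D2 mice, pairs of kept Stab2 probesets had a median Pearson correlation of 0.52, and 97.1% of the pairs were above 0. Without replicates 17 and 21 the median was 0.24 with 73.7% above 0, so the shared variation rested in good part on these 2 mice, which were picked after their values were seen. The probesets share a transcript and an array, and these correlations are a description.

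No pattern of that size was seen along Stab1 in the same mice. Replicates 21 and 17 exceeded the D2 median of Stab1 in 53 and 34 of 84 probesets. Replicate 21 had the highest Stab1 gene value of the D2 mice as well (3.83), with its probesets 0.18 above the D2 mean in the median. Pairs of kept Stab1 probesets had a median correlation of 0.057 in D2 and 0.060 in B6, and pairs of Stab2 probesets one of 0.037 in B6, where the signal is near the filter level. Without replicates 17 and 21 the Stab2 strain difference was 4.41.

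**Figure D3:**
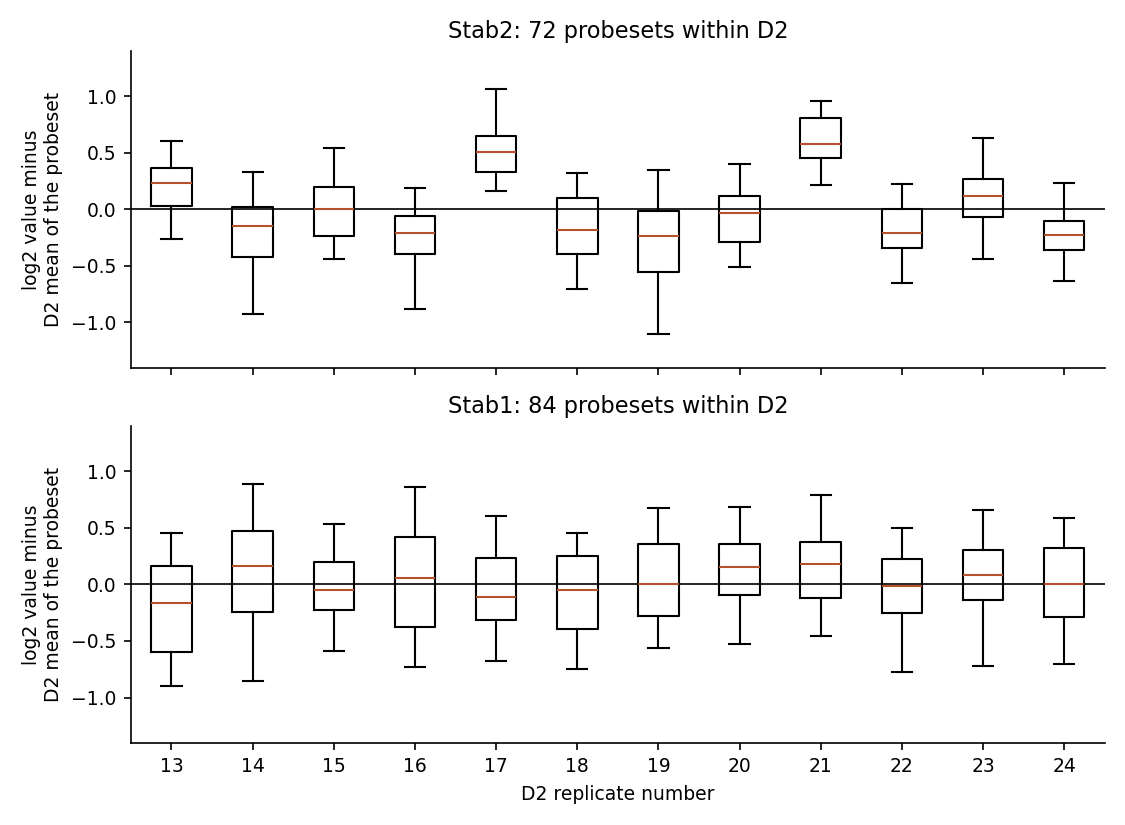
Deviation of each probeset from its own D2 mean (log2, vertical axis) in each of the 12 D2 mice (horizontal axis, replicate number, no order implied), for Stab2 (top) and Stab1 (bottom); boxes span the middle of the probesets from the 25th to the 75th percentile, lines in them are medians and whiskers reach the 5th and 95th percentiles. Stab2 medians of replicates 17 and 21 are 0.51 and 0.58, and all Stab1 medians lie between -0.16 and 0.18.

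No correlation between Stab1 and Stab2 among mice of 1 strain passed its test. The Pearson correlation of their gene values was -0.052 (Spearman 0.030) over the 10 B6 mice and -0.052 (Spearman -0.028) over the 12 D2 mice, with permutation p of 0.885 and 0.874 (two-sided; Spearman 0.947 and 0.938) and an adjusted p of 0.958 for both. In D2 the value was -0.57 without the 2 mice farthest from the Stab2 median, and in B6 it was 0.31. Without D2 replicates 13, 14 and 19, left out after the data were seen, the D2 value was 0.50, so neither value was stable at these numbers of mice.

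Each gene was also set against the mean gene value of 4 lists of cell markers within each strain, which made 18 correlations in all with the 2 above. None passed after Benjamini-Hochberg adjustment over the 18, and 2 had an unadjusted permutation p under 0.05. The largest was that of Stab1 with the brain endothelium list in B6 mice (r = 0.79, Spearman 0.82, permutation p = 0.00744 and 0.0056, adjusted p = 0.067, 0.72 without the 2 farthest mice). In D2 mice the same correlation was 0.076 (Spearman 0.11, permutation p = 0.817 and 0.735, adjusted p = 0.958). With the microglia list Stab1 had r = 0.74 in D2 (Spearman 0.73, permutation p = 0.00573 and 0.00938, adjusted p = 0.067, 0.66 without the 2 farthest). In B6 it had 0.59 (Spearman 0.52, permutation p = 0.0709 and 0.134, adjusted p = 0.425). The difference between the strains in these correlations was not tested. Stab2 in D2 had r from 0.064 to 0.36 with the 4 lists.

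The marker lists give the cell types beside which these genes were read. On the 4 letter B arrays alone, all calls named below were lost except those of Fcrls, Tnfaip6 and Hbb-b1, and these losses are not repeated at each gene. Array medians ran from 1.41 to 1.47 in B6 and from 1.45 to 1.51 in D2, so the array median in the model overlaps with strain. Whether a call lost in that model was lost for that reason cannot be told. Of 10 measured genes of border macrophages, the macrophages of vessels and meninges, Mrc1 (-0.32 ± 0.085, SE; limma adjusted p = 0.0157) fell in D2 and 9 were not called, with a median difference of 0.025. Mrc1 lost its call under centring of the arrays and with the array median in the model, and had too few probesets left to be tested under the stricter filter. The mean over the list ranged from 2.31 to 2.61 in B6 mice and from 2.25 to 2.59 in D2 mice. With all probesets used, Ms4a7 (0.47), Folr2 (1.16), Lyve1 (1.20) and Cd163 (1.34) had B6 means below the filter level. The other measured genes of this list ran from 1.97 to 2.82 in B6. Of 13 microglia genes, 4 fell and 9 were not called, against 8.26% of all genes called lower. Among them the largest were Fcrls (4.33 ± 0.21 in B6, 2.52 ± 0.14 in D2), the complement gene C1qb (-0.90) and Siglech (-0.46). C1qb lost its call with the array median in the model and Siglech in 5 of the 9 alternatives. The microglia list mean ranged from 4.06 to 4.54 in B6 and from 3.72 to 4.23 in D2. Of 13 brain endothelium genes, the organic anion transporter gene Slco1a4 (-0.41) and Pecam1 (-0.33) fell and 11 were not called, against the same 8.26%. Both lost their calls with the array median in the model, and Slco1a4 also with the stricter filter and on letter A arrays. The endothelial list means ran from 5.25 to 5.58 in B6 and from 4.92 to 5.44 in D2. The median difference was -0.22 in the endothelial list (12 of 13 genes below 0) and -0.14 in the microglia list (11 of 13). Over all genes it was -0.053, with 9917 of 16016 below 0. The part of these cell types in the lower Stab1 values was not tested.

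Markers of sinusoidal and lymphatic endothelium, where stabilin-2 is usually found, moved in both directions. Of 10 measured genes, the podoplanin gene Pdpn (0.49 ± 0.12, SE; limma adjusted p = 0.0113) and Gata4 (0.42 ± 0.11; adjusted p = 0.00979) rose, Prox1 (-0.30; adjusted p = 0.0429) fell and 7 were not called. Against these stand 2.57% of all genes called higher. Gata4, a regulator of sinusoidal identity in liver, lost its call without the low-signal filter, with a filter at the 75th percentile and with the array median in the model. Prox1, a lymphatic regulator that neurons also use, lost it with the stricter filter, the centring, the covariate and without 3 arrays. The median difference of the list was 0.10, and its mean ranged from 3.20 to 3.53 in B6 and from 3.19 to 3.76 in D2.

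Clec4g, Dnase1l3 and Gpr182, which mark liver sinusoids, had under 3 kept probesets and were not in the test. With all probesets used their values were 0.85 ± 0.26 in B6 and 0.82 ± 0.16 in D2 for Clec4g and 0.36 ± 0.13 and 0.33 ± 0.16 for Dnase1l3. For Gpr182 they were 1.56 ± 0.39 and 1.66 ± 0.55 (SD, n = 10 and 12 for each). For each gene the difference between the strains was smaller than its SD within either strain. Oit3 with all probesets was 1.11 ± 0.17 in B6 and 1.18 ± 0.21 in D2. The part of sinusoidal cells in the Stab2 values was not tested.

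The other hyaluronan receptors showed no called difference. Of the 4 measured, 0 were called by limma over all genes (10.8% of all genes were), and 2 had an unadjusted p under 0.05. The share of all genes under that unadjusted level was not counted. Cd44, the main hyaluronan receptor of leukocytes and glia, ran from 3.50 ± 0.33 in D2 to 3.86 ± 0.31 in B6 (difference -0.36, adjusted p = 0.0756). It was called with the stricter filter (-0.41), with the file letter as block (-0.37) and with the mean over probesets (-0.32). Layn, which encodes layilin, was 3.69 ± 0.53 in B6 and 3.16 ± 0.55 in D2 (-0.53, adjusted p = 0.107) and was at 0.14 on the letter B arrays alone. Lyve1, the link-domain receptor of lymphatic vessels and border macrophages, was 2.22 ± 0.37 and 2.28 ± 0.50, and Hmmr, an intracellular and spindle-associated binder, 2.79 ± 0.26 and 2.76 ± 0.18 (SD, n = 10 and 12). The differences of Lyve1 (0.059) and Hmmr (-0.030) were small beside their SDs and changed sign under other settings.

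Enzymes that make and break down hyaluronan were mostly not called. Of 11 measured, 1 rose, 1 fell and 9 were not called, against 2.57% of all genes called higher and 8.26% called lower, with a median difference of -0.024. Has1, a hyaluronan synthase, was 2.56 ± 0.11 in B6 and 2.81 ± 0.17 in D2 (0.25, limma adjusted p = 0.0256), and the synthase gene Has3 was 2.33 ± 0.19 and 2.02 ± 0.28 (-0.31, adjusted p = 0.049). Has2, the third synthase, differed by 0.33 (adjusted p = 0.0801) and was called under centring (0.43) and on letter A arrays (0.45). These calls were not steady. Has1 lost its call without the filter and with the array median in the model. Has3 kept its call only with the file letter as block. Neither had enough probesets left to be tested under the stricter filter.

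Of 13 measured hyaluronan-binding matrix proteins, 2 fell and 11 were not called, against 8.26% of all genes called lower. Tnfaip6, which encodes TSG-6, a link-domain protein that moves heavy chains onto hyaluronan, ran from 3.92 ± 0.48 in D2 to 5.78 ± 0.25 in B6 (SD, n = 12 and 10). This difference of -1.85 ± 0.16 (SE; limma adjusted p = 1.82e-09) came with values that did not overlap between the strains and kept its call under all 9 alternatives. Hapln2, a link protein at nodes of Ranvier, fell by 0.38 (adjusted p = 0.00686) and lost its call with the array median in the model. The median over the list was -0.093.

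Among other scavenger receptors no gene differed by as much as 0.5. Of 17 measured, the macrophage genes Cd68 (-0.49 ± 0.12, SE; limma adjusted p = 0.00776) and Mrc1 fell and 15 were not called, with a range from -0.49 to 0.30. Of all genes 8.26% were called lower. Of 17 known ligands and partners of the stabilins, 2 fell and 15 were not called. These were F8, the gene of coagulation factor VIII (2.73 ± 0.19 in B6 and 2.28 ± 0.12 in D2, no overlap, adjusted p = 0.000155, not in the test under the stricter filter), and Sparc (-0.26, adjusted p = 0.0333). Sparc lost its call in 6 of the 9 alternatives. Among 10 receptors and adaptors for phosphatidylserine and engulfment, the receptor kinase gene Mertk (-0.43, adjusted p = 0.00133) and Adgrb1 (-0.28, adjusted p = 0.0198) fell and 8 were not called. Both lost their calls with the array median in the model and Adgrb1 also with the centring. Cd68 too lost its call with the covariate.

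**Figure D4:**
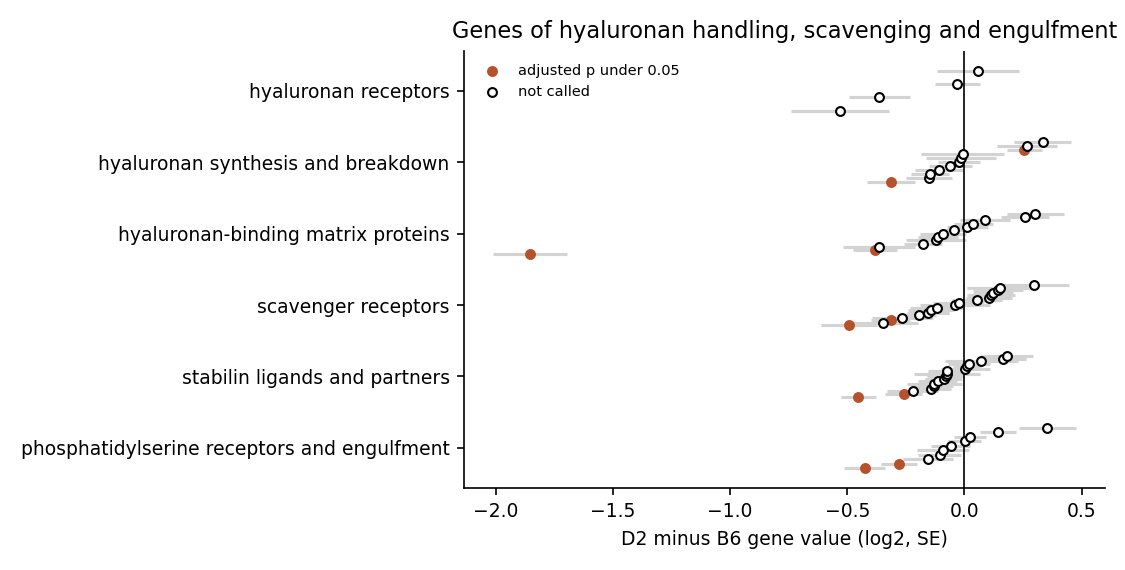
D2 minus B6 difference of the gene value (log2, horizontal axis, bars are SE) for each measured gene of 6 lists on hyaluronan handling, scavenging and engulfment; filled points are called at an adjusted p under 0.05. Tnfaip6 at -1.85 stands apart, and no other gene of these lists differs by as much as 0.6.

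The step in Stab2 was not shared by the genes next to it. Of the 10 measured genes on either side of Stab2 on chromosome 10 (order of the RefSeq gene table, assembly GRCm38.p6), 0 rose, 3 fell and 17 were not called, against 10.8% of all genes called. The nearest on one side were Nt5dc3 (-0.24), the endoplasmic chaperone gene Hsp90b1 (-0.24), 1810014B01Rik (-0.057), Timp3 (-0.11) and Syn3 (-0.067). On the other were Igf1 (-0.18), the neuropeptide gene Pmch (0.14), Parpbp (0.076), the nuclear pore gene Nup37 (0.045) and Washc3 (-0.38). None of these 10 was called (limma adjusted p from 0.0694 to 0.877). The 3 called lay 7 to 9 measured genes away and are named because they were called, after their values were seen. Mybpc1, a myosin-binding protein gene, was 3.78 ± 0.16 in B6 and 2.44 ± 0.16 in D2 (adjusted p = 5.65e-13). Gnptab, whose product tags lysosomal enzymes, was 6.20 ± 0.15 and 5.68 ± 0.21, and Chpt1, a phosphatidylcholine synthase gene, 5.94 ± 0.30 and 5.44 ± 0.36 (SD, n = 10 and 12). Gnptab and Chpt1 lost their calls with the array median in the model, and Chpt1 also on letter A arrays and without 3 arrays. In that model 1 of the 20 was called, and with the mean over probesets 7.

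Around Stab1 on chromosome 14, 0 of the 20 measured neighbours were called by limma, against 10.8% of all genes. An unadjusted p under 0.05 was found for 6 of them and for 7 of the 20 around Stab2. The share of all genes under that level was not counted, so these counts are a description. The nearest were Nt5dc2 (0.026), Smim4 (-0.022), the chromatin gene Pbrm1 (-0.023), Gnl3 (-0.061) and Glt8d1 (-0.033) on one side. On the other were Nisch (-0.15), Tnnc1 (-0.29), Sema3g (-0.054), Phf7 (0.075) and the deubiquitinase gene Bap1 (-0.0052). All 20 differences lay between -0.29 and 0.30.

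**Figure D5:**
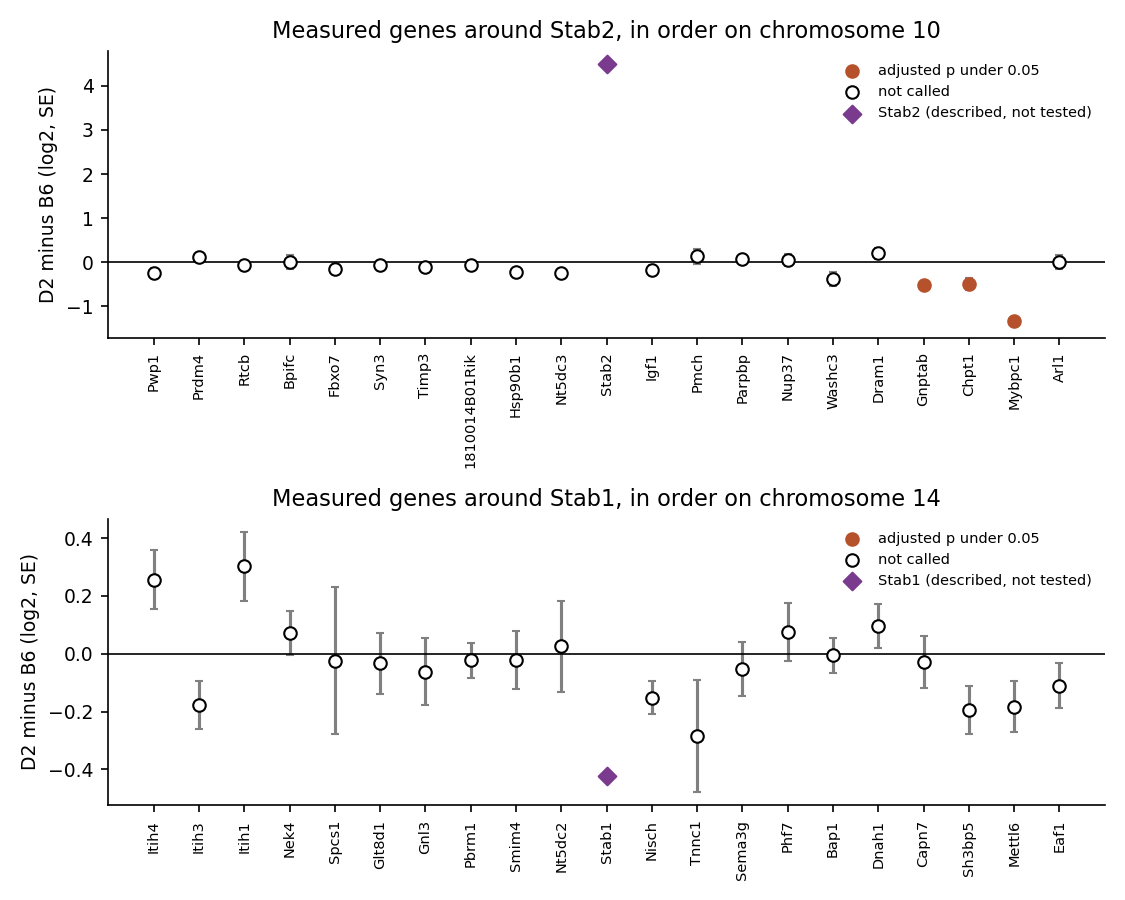
D2 minus B6 difference of the gene value (log2, vertical axis, bars are SE) for the 10 measured genes on each side of Stab2 (top) and Stab1 (bottom), in the order of the RefSeq gene table; filled points are called at an adjusted p under 0.05 and diamonds mark Stab2 (4.50) and Stab1 (-0.42), which are described and not tested. The genes next to Stab2 lie within 0.4 of 0 up to the sixth on either side, and the vertical scales of the panels differ.

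Over the whole series 1735 of 16016 genes were called (10.8%), 412 higher and 1323 lower in D2. After centring the arrays on their gene medians the split was 1023 higher and 756 lower, so small differences such as that of Stab1 depend in size on the scaling (-0.33 when centred). The remaining marker lists describe the tissue. Neuron genes had list means from 8.27 to 8.71, oligodendrocyte genes from 6.76 to 7.56 and astrocyte genes from 6.25 to 6.74 in single mice. In D2, 1 of 11 neuron (Map2, -0.38), 3 of 9 oligodendrocyte (Mobp, -0.78, Mal, -0.51, and Ermn, -0.49) and 2 of 10 mural genes (Acta2, -0.70, and Vtn, -0.37) fell and none of these lists had a gene that rose. Of 10 choroid plexus and ependyma genes 4 fell, with Foxj1 (-0.65), Folr1 (-0.61) and Kcnj13 (-0.56) the largest. Of 10 astrocyte genes 1 rose and 4 fell, among them Gfap (-0.80), Gjb6 (-0.40) and Aldh1l1 (-0.40). Of 9 meningeal fibroblast genes Col3a1 (0.37) rose and Slc22a6 (-0.30) fell. Of 6 blood cell genes Cd79a (0.61) rose and Hbb-b1 (-4.12), whose near-identical copies the probesets may not tell apart, and Alas2 (-0.90) fell. Among the genes named in these lists, Mobp, Folr1, Col3a1 and Hbb-b1 kept their calls with the array median in the model and the others lost them. The part of these cell types in the stabilin values was not tested.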

How the data were processed

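The authors deposited log2 probeset values. The submitters' processing notes list RMA, affy 1.12.2 and R 2.6.0, while RMA's options, the probeset definition and the genome build are not given in the sources used here. Of 24 arrays, 2 read by another scanner were left out by the authors per the labels' protocols. Array medians ran from 1.41 to 1.51 and tended to be higher in D2 (1.45 to 1.51) than in B6 (1.41 to 1.47). Precision is limited by how many arrays there are. Genes were named from GEO's platform annotation, with 3990 of 22276 symbols updated through the RefSeq table (GRCm38.p6). Gene values, for the 16016 genes with at least 3 kept probesets, were fitted with limma 3.58.1 in R 4.3.3 (D2 minus B6, Benjamini-Hochberg over all genes, called at an adjusted p under 0.05). The functions were tested on simulated data. Correlations used 100000 permutations. Figures were drawn with matplotlib 3.10.9.

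The members and the 17 gene lists were chosen with earlier results of these data known. Named are up to 6 highest and 4 lowest probesets of each gene, all hyaluronan receptors and Has genes, up to 3 called members (otherwise up to 2) of each other list, 5 neighbours on each side, and the 5 genes most alike. The alternatives were no filter, a filter at the 75th percentile, centring, the file letter as block, either letter alone, the mean over probesets, the array median as covariate and, added after the data were seen, leaving out D2 replicates 13, 14 and 19. Probe and protein sequences were not used here.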

Additional observations from a re-analysis of the deposited data

Results flagged for a closer look

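In 100 groups of 10 B6 values (both stabilin genes, their named probesets and the genes named by rule), 5 held a mouse far from the other 9, and chance flags about 1 in 20 groups. Stab2 probeset 4537640 was 2.62 in B6 replicate 1 against 0.28 to 1.25 in the other B6 mice, still far below the lowest D2 mouse (6.51). Hmmr was 3.41 in the same mouse against 2.45 to 2.86. The microglial gene Fcrls was 4.81 in replicate 5 against 4.13 to 4.47. In replicate 6 the erythroid gene Alas2 was 3.45 against 4.22 to 4.89 and Gatad2a was 4.55 against 5.04 to 5.49.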

How the results depend on the processing

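The Stab2 difference kept its direction under all alternatives run, from 4.17 with the mean over probesets, where it moved by more than 1 SD, to 4.74 on the letter B arrays, and that of Stab1 from -0.55 to -0.33. Non-overlapping Stab2 probesets numbered 50 to 68 against 66. The 50 came with the stricter filter, which kept fewer probesets and none of the overlapping ones. Non-overlapping Stab1 probesets numbered 0 with the stricter filter, which left out 4914270, 2 on letter A and 31 on the 4 letter B arrays, where overlap is rarer. Called genes numbered 75 on letter B (15 higher, 60 lower), 2718 with the mean (786 higher), 495 with the array median as covariate (266 higher, 229 lower) and 1779 when centred (1023 higher, 756 lower). Without D2 replicates 13, 14 and 19, 844 were lower. Of the called list genes, 3 were called on letter B and 8 with the covariate. Called neighbours of Stab1 numbered 1 when centred, 1 with the file letter as block and 2 with the mean, and those of Stab2 0 on letter B, 7 with the mean and 1 with the covariate. On letter B, Cd79a (-0.19) and Pdpn (-0.0012) reversed. Of 44 called genes named by rule or as neighbours, 14 lost their call in no setting outside letter B and 30 lost it with the covariate. Array medians tended to be higher in D2, so this covariate overlaps with strain, and what these losses reflect cannot be told. Has1, Has3, Mrc1, F8, Hbb-b1, Cd79a and 4930432K21Rik are among the 44 and had too few probesets to be tested under the stricter filter. The cause was not tested. No correlation was called under the alternatives run for them, which leave out the file letter as block and the letter B arrays alone, where correlations were not computed. No paired analysis was possible because the strains share no replicate numbers.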

Other observations

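Among all genes tested, those whose deviations from the strain means over the 22 arrays were most like Stab1 were Map1lc3a (Pearson r = 0.84), Icam5 (0.83), Fam131a (0.80), Lrrc3 (0.80) and Gatad2a (0.79), with a median over all genes of 0.14. For Stab2 they were 4930432K21Rik (0.71), the GABA-A receptor gene Gabrb1 (0.69), Gtf2e1 (0.67), Pcdh7 (0.66) and Timm10b (0.65), with a median of 0.065. Within D2 these 5 had r from 0.72 to 0.84 with Stab2, and within B6 from 0.056 to 0.58. These genes were picked for their correlation, share the arrays with the stabilins and carry no p.

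By the values themselves over the 22 arrays the genes most like Stab2 were Sfi1 (r = 0.99), Tbcb (0.97), AI506816 (0.97), Cfap54 (0.97) and Pisd-ps3 (0.96), all higher in D2. Such an r reflects the gap between 2 groups of mice. Within D2 the values for Sfi1 and AI506816 were -0.11 and 0.54, and within B6 0.038 and -0.41.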
